A study of Mus musculus with 25 samples.

Results

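The genes described here encode the heat shock proteins, the DnaJ co-chaperones and the subunits of the chaperonins. They were chosen by symbol alone: every entry of the deposited table whose symbol begins with Dnaja, Dnajb or Dnajc and a digit, with Hspa, Hspb, Hspd, Hspe or Hsph and a digit, with Hsp90, or with Cct and a digit from 2 to 8. This gave 81 of the 25006 entries, with 80 distinct symbols, since Hspa14 has 2 entries. Of the 81, 66 had a mean of at least 10 normalized counts over the 6 libraries and were tested. The other 15 were not tested, and 2 of those, Cct8l1 and Dnajc5b, had no read in any library.

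The 6 libraries are bulk RNA-seq of preparations labelled as CD8+ T cells enriched from tumours of C57BL/6 mice bearing E0771, a mouse mammary carcinoma line. In 3 of them the mice had been given an antibody to CD73 at intervals of 3 days, and 3 are labelled only as controls, with no control antibody named. CD73, the product of Nt5e, makes extracellular adenosine from AMP, and the comparison asks which transcripts differ when it is blocked in tumour-bearing mice. The labels name no transgene, no age and no pooling of animals, and they do not tie replicate numbers to animals, so p-values rest on sample-to-sample spread that may be technical. The other 19 of the 25 samples in the series come from cultured spleen cells and were not analysed here.

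Molecular chaperones keep newly made and stressed proteins soluble and help them to fold. HSP70 proteins bind exposed stretches of unfolded chains in cycles driven by ATP. DnaJ proteins deliver the chains and start the ATP hydrolysis, and HSP110 proteins exchange the nucleotide. HSP90 finishes the folding of kinases and receptors, small heat shock proteins hold unfolded chains without ATP, and the ring-shaped chaperonins (CCT in the cytosol, HSP60 with HSP10 in mitochondria) enclose actin, tubulin and other clients. The transcription factor HSF1 drives the cytosolic genes on heat or proteotoxic stress, through repeats of the heat shock element. The unfolded protein response drives the genes of the endoplasmic reticulum, in part through the endoplasmic reticulum stress element. Tumour cells often use high levels of both sets.

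The libraries held between 10180624 and 17161679 reads in genes. The labelled cell type was a small part of them: the 13 T cell markers in the table took 0.00159 to 0.00567% of the reads of the controls and 0.00299 to 0.00594% after anti-CD73, although none of the 13 was without reads. All 13 had a log2 fold change above 0 (median 0.66, and 1.27 without control replicate 1). DESeq2 called 0 of them higher (background 2.92%). Limma without control replicate 1 called 5 higher (background 11.9%). The 14 macrophage markers took 0.0598 to 0.113% and 0.0997 to 0.177%. DESeq2 called 3 of the 14 higher (background 2.92%), and their median log2 fold change as a list was 0.65, or 0.96 without control replicate 1. The 10 neutrophil markers took 0.0448 to 0.0611% of control reads and 0.0692 to 0.123% after anti-CD73, with no overlap. Of the 8 tested, 4 were called higher by DESeq2, and the median log2 fold change was 0.93, or 0.61 without control replicate 1. The 8 epithelial markers took 0.0151 to 0.0363% and 0.0174 to 0.0220%. The part of these cell types in the chaperone values was not tested. Chaperone genes are expressed in nearly every cell, so the values below describe this mixed material. In bulk samples, fewer cells of a type and less RNA per cell cannot be told apart. Control replicate 1 stood apart from the other controls over all tested genes: the median absolute log2 difference from the mean of control replicates 2 and 3 was 0.42, against 0.15 between those 2. Where leaving it out moved the fold change of a single gene by over 1.5 times, both values are given.

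The promoters of 65 of the 80 symbols were found in the RefSeq promoter table (build GRCm38.p6), as windows of 300 bases that run from 250 before to 50 after the start of transcription. Not found, and so not searched, were Cct4, Dnajc2, Dnajc5, Dnajc5b, Dnajc11, Dnajc12, Dnajc18, Dnajc22, Dnajc30, Hspa8, Hspa9, Hspa13, Hspb2, Hsp90aa1 and Hsp90ab1. Of these, Hspa8, Hsp90aa1 and Hsp90ab1 are known HSF1 targets, and Hspa13 is a member of the endoplasmic reticulum. A 2-unit heat shock element, written GAANNTTC or TTCNNGAA, was present on either strand in 14 of the 65 windows (21.5%), against 15.1% of all 32851 windows. A 3-unit element, in which GAA and TTC alternate 3 times with 2 free bases between them and which contains the 2-unit form, was present in 3 (4.62%), those of Dnajb6, Hspe1 and Hsph1, against 0.603%. The endoplasmic reticulum stress element, CCAAT and CCACG with 9 free bases between them on either strand, was present in 3 (4.62%), those of Hspa5, Hsp90b1 and Dnajc3, against 0.119%. The 8 letters TGACGTGG, a site of XBP1 and ATF6, were present in 1 window (1.54%), that of Dnajc25, against 0.676%. A match is a run of letters and not a shown binding site. The 150 bases before the start are printed for 3 HSF1 targets with a 2-unit element, Hspa1a and Hspb1, which had the highest fold changes of the 12 known targets, and Dnaja1, which had the lowest. They are also printed for the 3 genes with the endoplasmic reticulum element, which are compared over the libraries below. The bases run 5′ to 3′ on the gene's own strand, with the element in capitals (in Hsp90b1 it reads on the opposite strand). The positions are Hspa1a at chr17:34972157-34972306, minus strand, Hspb1 at chr5:135887769-135887918, plus strand, Dnaja1 at chr4:40722318-40722467, plus strand, Hspa5 at chr2:34771940-34772089, plus strand, Hsp90b1 at chr10:86705445-86705594, minus strand, and Dnajc3 at chr14:118937782-118937931, plus strand.
Hspa1a: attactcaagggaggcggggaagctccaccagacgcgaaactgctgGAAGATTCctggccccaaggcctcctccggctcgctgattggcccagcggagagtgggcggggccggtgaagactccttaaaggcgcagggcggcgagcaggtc
Hspb1: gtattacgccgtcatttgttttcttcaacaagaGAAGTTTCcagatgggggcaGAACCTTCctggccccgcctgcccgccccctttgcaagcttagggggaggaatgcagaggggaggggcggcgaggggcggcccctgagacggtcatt
Dnaja1: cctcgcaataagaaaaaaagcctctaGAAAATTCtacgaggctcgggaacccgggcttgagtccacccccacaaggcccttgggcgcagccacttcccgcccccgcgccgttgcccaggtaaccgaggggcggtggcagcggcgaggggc
Hspa5: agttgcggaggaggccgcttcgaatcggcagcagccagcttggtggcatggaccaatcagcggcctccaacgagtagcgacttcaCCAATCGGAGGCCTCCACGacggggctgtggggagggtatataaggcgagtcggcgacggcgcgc
Hsp90b1: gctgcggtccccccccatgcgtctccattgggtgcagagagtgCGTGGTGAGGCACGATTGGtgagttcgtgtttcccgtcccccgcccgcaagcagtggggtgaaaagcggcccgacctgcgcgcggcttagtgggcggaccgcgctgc
Dnajc3: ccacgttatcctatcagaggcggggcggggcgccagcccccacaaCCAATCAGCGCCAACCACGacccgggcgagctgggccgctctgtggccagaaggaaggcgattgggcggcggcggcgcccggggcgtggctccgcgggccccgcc

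After anti-CD73, no chaperone gene passed the test. With limma, 0 of 66 had an adjusted p under 0.05, and the background was 0.0% of the 12262 tested genes. By unadjusted p under 0.05, 3 members lay higher (4.55%, background 8.69%) and 8 lower (12.1%, background 6.82%). Control and anti-CD73 values were fully separate for 3 members that lay higher (4.55%, background 11.5%) and for 13 that lay lower (19.7%, background 12.0%). The edgeR test called 0 members, against 0.0% of all genes, with 8 members at an unadjusted p under 0.05 (1868 of the 12262 genes). DESeq2 called 4 (6.06%, background 4.93%): Dnajb11 and Hspb1 higher (background 2.92%) and Dnajb4 and Hspb8 lower (background 2.01%). Without control replicate 1, limma called 6 higher (9.09%, background 11.9%) and 7 lower (10.6%, background 10.3%), and both shares lie near the background.

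The median log2 fold change of the 66 tested members was -0.08, against 0.0039 for all tested genes, and 42 of the 66 (63.6%) were below 0, against 49.5%. Fold changes here are on the scale of log2(normalized count + 1), anti-CD73 minus control. The median was -0.0086 when erythroid genes were left out and the libraries rescaled, a setting that moved the median of all genes to 0.073. The 7 erythroid markers took 0.0644 to 0.482% of control reads and 0.0754 to 0.272% after anti-CD73. This setting changed both the genes and the scale, and their separate parts were not tested. Together the 81 entries made up 1.96, 1.66 and 1.67% of all reads in the controls (replicates 1, 2 and 3 in order) and 1.80, 1.69 and 1.79% in the anti-CD73 libraries. Control replicate 1 was the highest of all libraries, and the groups overlapped.

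**Figure D1:**
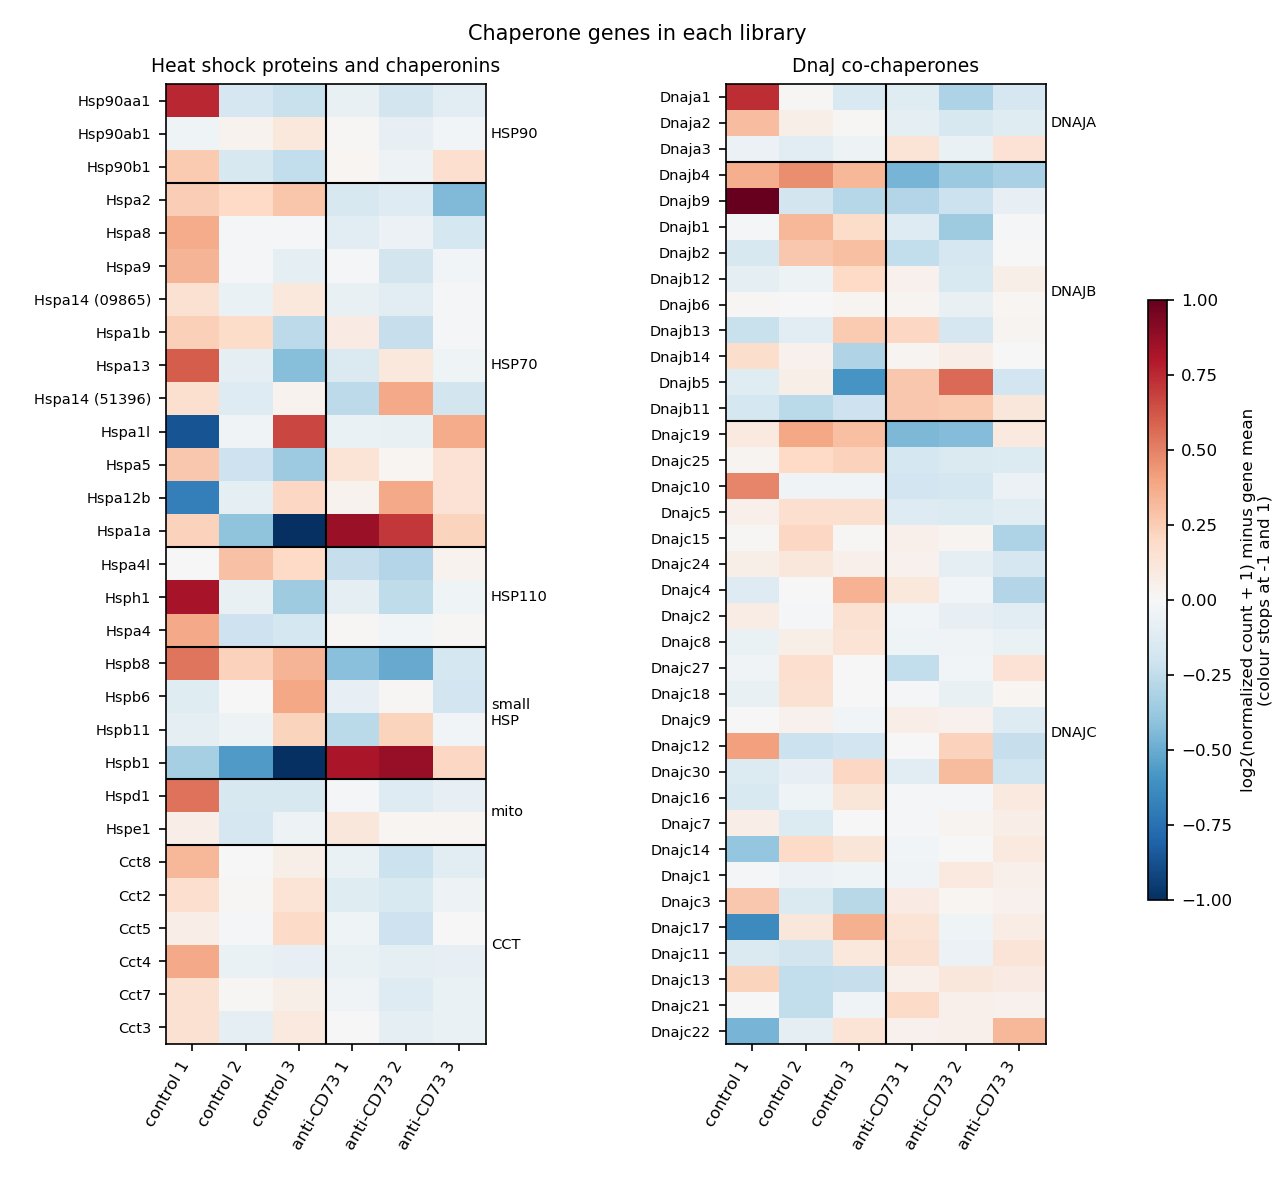
Each of the 66 tested chaperone genes (rows, grouped by family and ordered by log2 fold change) in each library (columns), coloured by log2(normalized count + 1) minus the gene's mean over the 6 libraries; numbers after Hspa14 are the last digits of its 2 identifiers. Hsp90aa1, Hsph1, Dnaja1 and Dnajb9 were high in control replicate 1 alone, while Dnajb4 and Hspb8 were lower and Hspb1 and Dnajb11 higher in all 3 anti-CD73 libraries.

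Control replicate 1 held the highest value of all 6 libraries for 25 of the 66 members (37.9%, background 30.7%) and the lowest for 9 (13.6%, background 32.1%). This is a description without a test. It was highest for 6 of the 12 known HSF1 targets, with a median log2 difference of 0.42 from the mean of the other controls. It was also highest for 6 of the 8 members of the endoplasmic reticulum, with a median of 0.50, against 0.021 for all tested genes. In the same library the median log2 difference from the other controls was 1.92 for the 13 T cell markers, 0.38 for the 16 proliferation genes and -2.79 for the 7 erythroid markers. The part of these cells in the chaperone values was not tested.

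The 3 HSP110 members act as nucleotide exchange factors for HSP70. Hsph1, the stress-induced one (ENSMUSG00000029657; mm10 chromosome 5, 149616843 to 149636498), stood at 6081, 3270.1 and 2696 normalized counts in control replicates 1, 2 and 3, and at 3222, 2883 and 3343 in anti-CD73 replicates 1, 2 and 3. Control replicate 1 was 2.04 times the mean of the other 2, and all 3 anti-CD73 libraries fell within the range of the controls. The log2 fold change was -0.26 (SE 0.28, adjusted p = 0.69) and turned to 0.08 without control replicate 1 (adjusted p = 0.61). Hspa4, the constitutive form, was also highest in control replicate 1 (7415 against 4935 and 5045) and stood at 5761, 5604 and 5757 after anti-CD73, a log2 fold change of 0.0033 (SE 0.17), and 0.19 without control replicate 1. Hspa4l showed the opposite order. It stood at 1278, 1567 and 1474 among controls and at 1092, 1044 and 1312 after anti-CD73, with only anti-CD73 replicate 3 inside the control range. Its log2 fold change was -0.33 (SE 0.14, adjusted p = 0.314), and -0.41 without control replicate 1 (adjusted p = 0.0281).

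HSP90 has 3 members, in 2 compartments. Hsp90aa1, the inducible cytosolic form, stood at 3934, 2078 and 2005 normalized counts over the controls and 2223, 2054 and 2171 after anti-CD73. It was 1.93 times as high in control replicate 1 as in the mean of the other 2, and the 5 other libraries lay close together. Its log2 fold change was -0.24 (SE 0.25, adjusted p = 0.681), and 0.07 without that library. Hsp90ab1, the constitutive form, had 46231, 48671 and 51091 in the controls and 48003, 44852 and 46540.5 after anti-CD73, and the groups overlapped (-0.07, SE 0.12, adjusted p = 0.831; -0.10 without control replicate 1). This sign did not hold with quantile normalization (0.11) or with the rescaling without erythroid genes (0.0027). The form of the endoplasmic reticulum, Hsp90b1 (GRP94), is given with its compartment below.

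Among the HSP70 genes of the cytosol, Hspa8, the constitutive HSC70, stood at 11719, 8921 and 8981 normalized counts among controls and at 8378, 8656 and 8010.4 after anti-CD73. All anti-CD73 values lay below all controls, by a log2 fold change of -0.23 (SE 0.14, adjusted p = 0.462), and by -0.10 without control replicate 1 (adjusted p = 0.356). Hspa2, a form best known from germ cells, stood at 168, 162 and 171 in the controls and 126, 129 and 104 after anti-CD73, again without overlap (-0.48, SE 0.16, adjusted p = 0.232). Its value without control replicate 1 was also -0.48 (adjusted p = 0.0663). Hspa12b, an HSP70 relative of endothelial cells, had 256, 388 and 476 in the controls and 422, 536 and 456 after anti-CD73, so the groups overlapped (0.37, SE 0.24, adjusted p = 0.487). Control replicate 1 was 0.593 times the mean of the other controls, and the value without it was 0.13. The 6 endothelial markers took 0.0210 to 0.0251% of control reads and 0.0261 to 0.0318% after anti-CD73, and all 5 tested had a log2 fold change above 0 (median 0.54, and 0.89 without control replicate 1). In control replicate 1, where Hspa12b was lowest, the median log2 difference of these markers from the other controls was 1.07. Their part in the value of Hspa12b was not tested.

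The inducible HSP70 genes Hspa1a and Hspa1b lie on chromosome 17 on the same strand, with start sites 12918 bases apart, and encode nearly the same protein. Reads that match both may be split or lost, so their separate levels are uncertain. Hspa1a (ENSMUSG00000091971; mm10 chromosome 17, 34969359 to 34972156) had 350.3, 226 and 97.3 normalized counts in the controls and 546, 488 and 349 after anti-CD73. The lowest anti-CD73 value lay just under the highest control. The log2 fold change was 1.19 (SE 0.44, adjusted p = 0.264), with 1.60 without control replicate 1 (adjusted p = 0.0098) and 0.69 without control replicate 3 (adjusted p = 0.359). Hspa1b had 2365, 2282 and 1677 in the controls and 2119, 1713 and 1984 after anti-CD73, which overlap fully (-0.11, SE 0.16, adjusted p = 0.782; -0.019 without control replicate 1). The sum of both was 2332 ± 494 in controls against 2399 ± 239 with anti-CD73 (SD, n = 3), a difference of 0.06 in the mean log2 value. The share of that sum listed under Hspa1a was 12.9, 8.99 and 5.48% in the controls and 20.5, 22.2 and 14.9% after anti-CD73, with no overlap. Hspa1l, which starts 547 bases from Hspa1a on the other strand, stayed between 8.12 and 25.4 normalized counts. Hspa14, a ribosome-associated member, listed in 2 entries, summed to 1064 ± 85.2 in controls against 978 ± 21.8 with anti-CD73 (SD, n = 3).

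Of the 8 small heat shock genes 4 were tested, and 2 of these differed between the groups without overlap (background 23.5%), in opposite directions. Hspb8 (HSP22), which works with BAG3 to send misfolded proteins to autophagy (ENSMUSG00000041548; mm10 chromosome 5, 116408491 to 116422864), stood at 4646, 3757 and 4040.5 normalized counts across controls and 2389, 2249.9 and 2825 after anti-CD73. All 3 anti-CD73 libraries lay well under the lowest control. The fold was 0.599 (log2 -0.74, SE 0.13, adjusted p = 0.141), and the log2 value without control replicate 1 was -0.65 (adjusted p = 0.0042). DESeq2 gave an adjusted p of 0.00051.

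Hspb1 (HSP27), an actin-binding holdase (ENSMUSG00000004951; mm10 chromosome 5, 135887919 to 135889563), stood at 76.2, 64.6 and 47.1 normalized counts over the controls and 170.2, 177 and 111 after anti-CD73, on 51 to 75 and 108 to 183 reads. The groups did not overlap, with anti-CD73 replicate 3 closest to the controls. The fold was 2.41 (log2 1.27, SE 0.27, adjusted p = 0.151). It was 1.42 on the log2 scale without control replicate 1 (adjusted p = 0.0058), and the adjusted p of DESeq2 was 0.0027. Cryab, the related alpha B-crystallin that the symbol rule does not take in, also lay higher without overlap, at 150.3, 128 and 106 against 202, 174 and 155 (log2 0.47, SE 0.20, adjusted p = 0.311). Both proteins are abundant in muscle. The 6 muscle markers took 0.00085 to 0.00184% of control reads and 0.00212 to 0.00228% after anti-CD73, and all 4 tested had a log2 fold change above 0 (median 1.09, and 0.74 without control replicate 1). One of them, Des (desmin), named after its values were seen, went from 9.14, 13.9 and 18.7 to 51.1, 55.1 and 47.3. All 4 tested muscle markers were lowest of all libraries in control replicate 1 (median log2 difference from the other controls -0.95). Hspb1 and Cryab had their highest control values in that library. The 11 fibroblast markers took 0.0350 to 0.0434% and 0.0514 to 0.0606%. The part of these cells in Hspb1 and Cryab was not tested. Hspb6 and Hspb11 overlapped between the groups (log2 -0.17 and -0.05, and -0.28 and -0.11 without control replicate 1), and Hspb2, Hspb3, Hspb7 and Hspb9 did not exceed 10.6 normalized counts in any library.

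**Figure D2:**
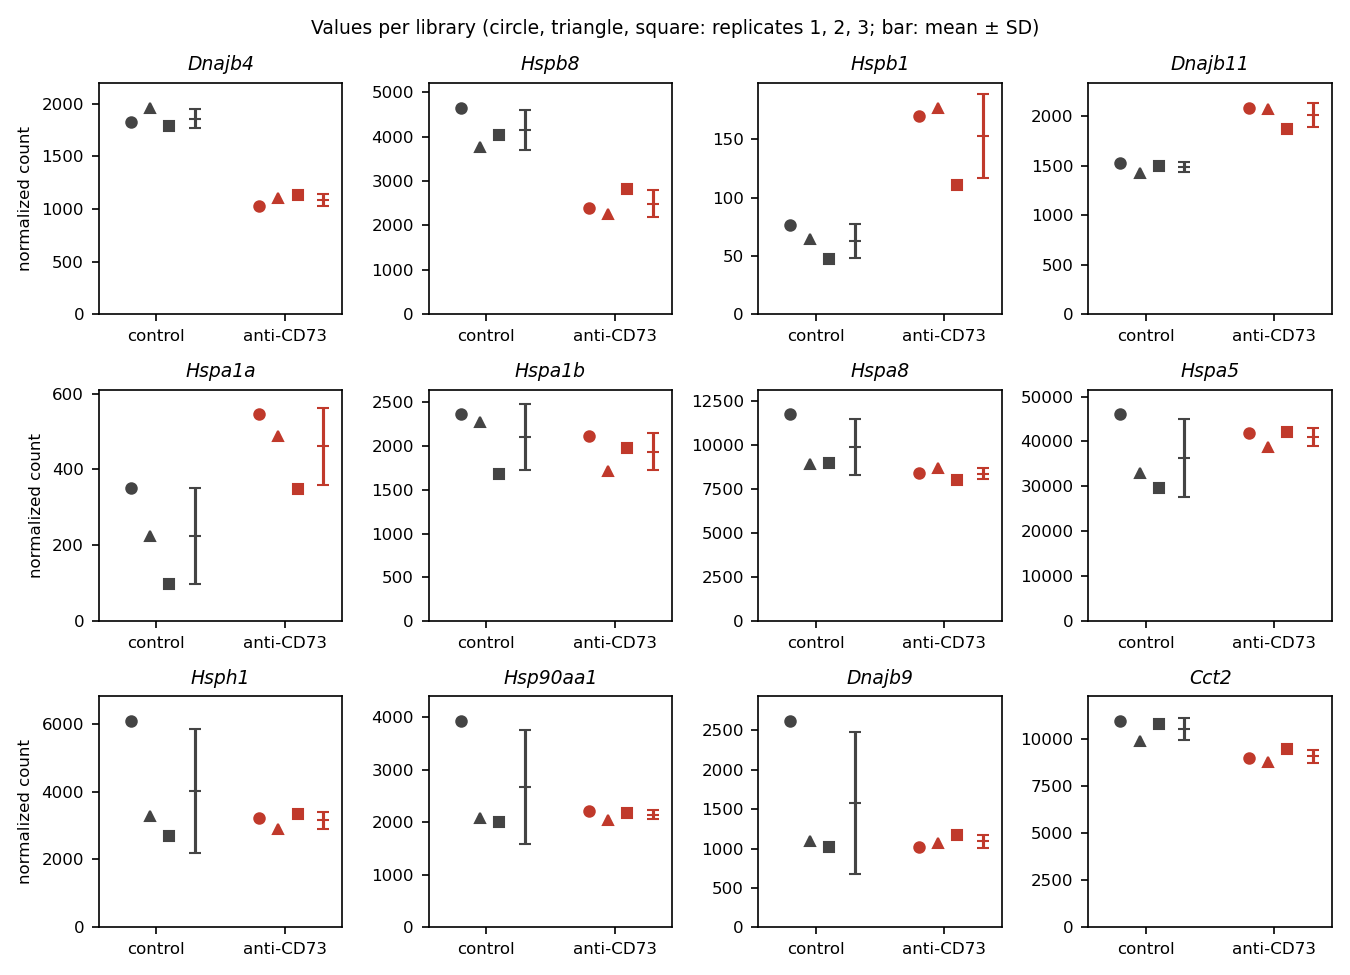
Normalized counts of 12 chaperone genes in each library (grey, control; red, anti-CD73; circle, triangle and square for replicates 1, 2 and 3), with the mean and SD of each group (n = 3); every axis starts at 0. Dnajb4 and Hspb8 lay lower and Hspb1 and Dnajb11 higher without overlap, while the spread of Hsph1, Hsp90aa1 and Dnajb9 among controls came from control replicate 1.

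The 6 tested subunits of CCT, the cytosolic chaperonin, lay slightly lower together, with log2 fold changes from -0.26 to -0.11 (median -0.16, against 0.0039 for all tested genes). The groups of Cct2, Cct7 and Cct8 did not overlap (background 12.0% lower), and 0 of 6 had an unadjusted p under 0.05 (background 15.5%). Cct8 stood at 8078, 6421 and 6678 normalized counts across controls and 6113, 5509.9 and 5954 after anti-CD73 (log2 -0.26, SE 0.12, adjusted p = 0.362; -0.16 without control replicate 1). Cct2 had 10979.5, 9886 and 10787 and then 9012, 8803 and 9469 (-0.21, SE 0.11, adjusted p = 0.379). For Cct7 the values were 5452, 4932 and 5108 in the controls and 4771, 4483 and 4676 after anti-CD73 (-0.15, SE 0.10). Cct3 (-0.11, SE 0.11; -0.056 without control replicate 1), Cct4 (-0.16, SE 0.15) and Cct5 (-0.17, SE 0.11) overlapped between the groups. Tcp1, which encodes the first CCT subunit and is not matched by the rule, had -0.21 (SE 0.14, adjusted p = 0.508), and -0.083 without control replicate 1, which was 1.31 times the mean of the other controls. Cct4, whose controls were 6614, 4845 and 4802, stood at -0.0043 without control replicate 1, and the median of the 6 was then -0.14. With quantile normalization the median was -0.053 and Cct3 turned to 0.020. Cct6b, a testis form, had 1 to 7 reads a library. Cct6a, also on the fixed panel, had no entry under that symbol.

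The 14 genes of the CCT partner list, with prefoldins, phosducin-like proteins and tubulin cofactors, had 11 values below 0 (median -0.20), against 49.5% of all tested genes. Of the 14, 1 had an unadjusted p under 0.05 (background 15.5%). That gene was Tbca, a tubulin cofactor, at 790.0, 845 and 799 in the controls and 663, 609.9 and 624 after anti-CD73 (-0.36, SE 0.11, adjusted p = 0.198). Pdcl3, of the phosducin-like proteins, also lay lower without overlap (-0.20, SE 0.11, adjusted p = 0.438). Control replicate 1 held the highest value of all libraries for 5 of the 14 genes and the lowest for 6 (background 30.7% and 32.1%).

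In mitochondria, Hspd1 (HSP60) and its lid Hspe1 (HSP10) start 95 bases apart on opposite strands of chromosome 1, with transcripts that overlap at their 5′ ends. Hspd1 stood at 4895, 3008 and 3005 normalized counts over the controls and 3331, 3064 and 3182 after anti-CD73. The value of control replicate 1 was 1.63 times the mean of the other 2, and the sign of the log2 fold change (-0.15, SE 0.20, adjusted p = 0.757) turned without it (0.09). Hspe1 varied less, with 1145, 972 and 1054 in the controls and 1177, 1106 and 1103 after anti-CD73 (0.10, SE 0.11, adjusted p = 0.712; 0.16 without control replicate 1). Although the genes share a start region, Hspe1 in control replicate 1 was only 1.13 times the mean of the other controls. Hspa9, the mitochondrial HSP70 (mortalin), had 10218, 7963 and 7582 in the controls and 8002, 7095 and 7926 after anti-CD73 (-0.15, SE 0.14). Without control replicate 1, which was 1.31 times the mean of the other controls, its value was -0.02. Dnajc19, a subunit of the import motor, stood at 95.4, 117 and 110.0 in the controls and 65.1, 65.6 and 95.6 after anti-CD73. Anti-CD73 replicate 3 reached the lowest control (-0.52, SE 0.22, adjusted p = 0.318). The 15 mitochondrial partner genes gave 9 values above 0 and 6 below (median 0.083, and 0.0054 without control replicate 1). In the limma fit 0 had an unadjusted p under 0.05 (background 15.5%). The smallest p was that of Bcs1l, a factor of complex III assembly, which lay higher without overlap (0.48, SE 0.22, adjusted p = 0.346).

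Type A and B DnaJ proteins are the main cytosolic partners of HSP70. Dnajb4, one of the HSP40 proteins (ENSMUSG00000028035; mm10 chromosome 3, 152181580 to 152210432), had the smallest p of all 66 members. It stood at 1827, 1961 and 1791 normalized counts among controls and at 1027, 1101 and 1134 after anti-CD73, so that the groups were far apart and each was tight. The fold was 0.585 (log2 -0.77, SE 0.10, adjusted p = 0.141). The log2 value without control replicate 1 was -0.79 (adjusted p = 0.0017), and DESeq2 gave an adjusted p of 5.68e-08. Dnajb1, the stress-induced HSP40 and an HSF1 target, stood at 3436, 4379 and 3958 in the controls and 3179, 2722 and 3443 after anti-CD73. Its highest anti-CD73 value just passed the lowest control, which was control replicate 1 (-0.33, SE 0.14, adjusted p = 0.315; -0.43 and 0.0227 without that library). Dnajb2, named after its values were seen, likewise had 446, 601 and 614 against 419, 442 and 497 (-0.28, SE 0.16), and -0.43 without control replicate 1 (adjusted p = 0.0236). Dnajb5, at only 24.7 to 56.1 normalized counts, lay at 0.43 (SE 0.30), and Dnajb6 had nearly the same level in all libraries (213 ± 2.27 in controls against 209.6 ± 8.23 with anti-CD73; SD, n = 3).

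Dnaja1 and Dnaja2, the farnesylated type A partners, both lay lower. Dnaja2 had 5086, 4285 and 4130.3 normalized counts in the controls and 3846, 3668 and 3764 after anti-CD73, with no overlap (-0.25, SE 0.12, adjusted p = 0.346; -0.16 without control replicate 1). Dnaja1 stood at 1574, 949 and 848 and then 866, 760.2 and 838 (-0.40, SE 0.23, adjusted p = 0.442). Control replicate 1 was 1.75 times the mean of the other 2, and the value without it was -0.13. Dnaja3, of mitochondria, overlapped between the groups (0.14, SE 0.12).

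The 24 tested type C members, which carry a J domain in otherwise unrelated proteins, had 11 values above 0 and 13 below (median -0.0078, and -0.10 without control replicate 1). Dnajc5, the cysteine string protein of secretory vesicles, stood at 3048, 3303 and 3279 normalized counts across controls and 2678, 2676 and 2707 after anti-CD73, with very tight treated libraries (-0.26, SE 0.10, adjusted p = 0.275; adjusted p = 0.019 without control replicate 1). Dnajc25 had 406, 459 and 469 and then 352, 361 and 362 (-0.31, SE 0.12, adjusted p = 0.298; adjusted p = 0.0307 without control replicate 1). In the other direction, Dnajc21, a factor of ribosome maturation, lay at 703, 593 and 689 against 802, 729.5 and 727 (0.19, SE 0.12, adjusted p = 0.498). Dnajc13, an endosome protein, stood at 2187, 1580.0 and 1596 in the controls and 1943, 2029.7 and 1984 after anti-CD73 (0.17, SE 0.15), and at 0.32 without control replicate 1 (adjusted p = 0.0164). Dnajc11, of the mitochondrial inner membrane organising system, lay at 0.15 (SE 0.13). Dnajc22 had few counts, between 70.1 and 122 (0.28, SE 0.22; 0.12 without control replicate 1). Dnajc2, which sits on ribosomes, and Dnajc24, which takes part in diphthamide synthesis, lay lower without overlap (-0.14 and -0.15; both named after their values were seen), so that 5 of the 24 lay lower and 1 higher without overlap (background 12.0% and 11.5%). Among tested type C members, the largest difference between control replicate 1 and the other controls was that of Dnajc17, a spliceosome-linked protein also named after its values were seen, at 92.4 in control replicate 1 against 156 and 185.

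In the endoplasmic reticulum, Dnajb11 (ERdj3), a secreted partner of BiP (ENSMUSG00000004460; mm10 chromosome 16, 22857845 to 22879634), stood at 1531, 1430.4 and 1501 normalized counts over the controls and 2087, 2075 and 1875 after anti-CD73. The lowest treated library lay clear of the highest control. The fold was 1.35 (log2 0.43, SE 0.10, adjusted p = 0.166). It was called without control replicate 1 (0.46, adjusted p = 0.007) and by DESeq2 (adjusted p = 0.0065). Its promoter window holds none of the motifs searched.

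The 3 genes with an endoplasmic reticulum stress element had a common order over the libraries: control replicate 1 highest, then the anti-CD73 libraries, then control replicates 2 and 3. This order is not particular to them. Hspa4, Hspd1 and Dnajc13, whose windows were searched and hold no such element, had it too. The share of all tested genes with this order was not counted. Hspa5 (BiP), an HSP70 of this compartment (ENSMUSG00000026864; mm10 chromosome 2, 34772090 to 34776529), stood at 46058, 33042 and 29681 normalized counts across controls and 41952, 38745 and 42219.6 after anti-CD73. Its log2 fold change was 0.20 (SE 0.18, adjusted p = 0.634), and 0.39 without control replicate 1 (adjusted p = 0.018). Hsp90b1 had 18537, 13847 and 13014 and then 15654, 14926 and 17329 (0.09, SE 0.16; 0.25 without control replicate 1, adjusted p = 0.0749). Dnajc3 (p58IPK), an inhibitor of the kinase PERK, had 2031, 1525 and 1391 and then 1785, 1708 and 1729.6 (0.10, SE 0.15; 0.26 without control replicate 1, adjusted p = 0.0492). Of the 8 members of this compartment, 5 had all anti-CD73 libraries above control replicates 2 and 3, as did 25.7% of all tested genes.

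Other members of the compartment did not have the full order of Hspa5, Hsp90b1 and Dnajc3. Dnajb9 (ERdj4) stood at 2622, 1099.8 and 1024 in the controls and 1023, 1076 and 1178 after anti-CD73. It was 2.47 times as high in control replicate 1 as in the mean of the other 2, and near 0 without that library (0.04, against -0.40 with SE 0.34). Hspa13, whose promoter was not searched, had 1757, 1081 and 858 and then 1046, 1243 and 1123 (-0.05, SE 0.25, and 0.24 without control replicate 1). Dnajc10 (ERdj5), a disulfide reductase, lay lower without overlap at 2440.0, 1698 and 1703 against 1529, 1546 and 1676 (-0.28, SE 0.16; -0.10 without control replicate 1). Dnajc1 overlapped (0.08, SE 0.10), although its anti-CD73 values all lay above control replicates 2 and 3.

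Of the 30 tested genes of the unfolded protein response list, 19 lay above 0 and 11 below (median 0.043, and 0.077 without control replicate 1). By unadjusted p under 0.05, 4 lay higher and 0 lower (background 8.69% and 6.82%). The groups did not overlap for 5, all higher (background 11.5% higher and 12.0% lower). The counts are small, and these shares of higher genes are not far from the background. DESeq2 called 3 of the 30 higher and 0 lower (background 2.92% and 2.01%). All anti-CD73 libraries lay above control replicates 2 and 3 for 12 of the 30, and below them for 3 (background 25.7% and 27.8%). The 5 genes without overlap were Sdf2l1, Hyou1, Creld2, Manf and Pdia4, the last named after its values were seen. Hyou1 (GRP170), the nucleotide exchange factor of BiP, stood at 3811, 3578 and 3452 normalized counts over the controls and 4914, 5162 and 5385 after anti-CD73 (0.51, SE 0.10, adjusted p = 0.147). Sdf2l1, which forms a complex with the Dnajb11 protein, stood at 596, 760.2 and 745 and then 1134, 1190.1 and 1047 (0.69, SE 0.13, adjusted p = 0.147). Creld2 had 985, 1291 and 1271 against 1709.9, 1739 and 1793 (0.57, SE 0.13, adjusted p = 0.166). Manf lay at 0.25 (SE 0.09, adjusted p = 0.275) and Pdia4 at 0.23 (SE 0.10, adjusted p = 0.325). For these 5 genes control replicate 1 was within 0.769 to 1.08 times the mean of the other controls, unlike for Hspa5. The regulators Xbp1 (0.09, SE 0.11; 0.16 without control replicate 1), Atf4 (-0.18, SE 0.12) and Ddit3 (0.19, SE 0.23; -0.068 without control replicate 1), the last 2 of the PERK branch, overlapped between the groups. Without control replicate 1, 9 of the 30 were called higher and 1 lower (background 11.9% and 10.3%).

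**Figure D3:**
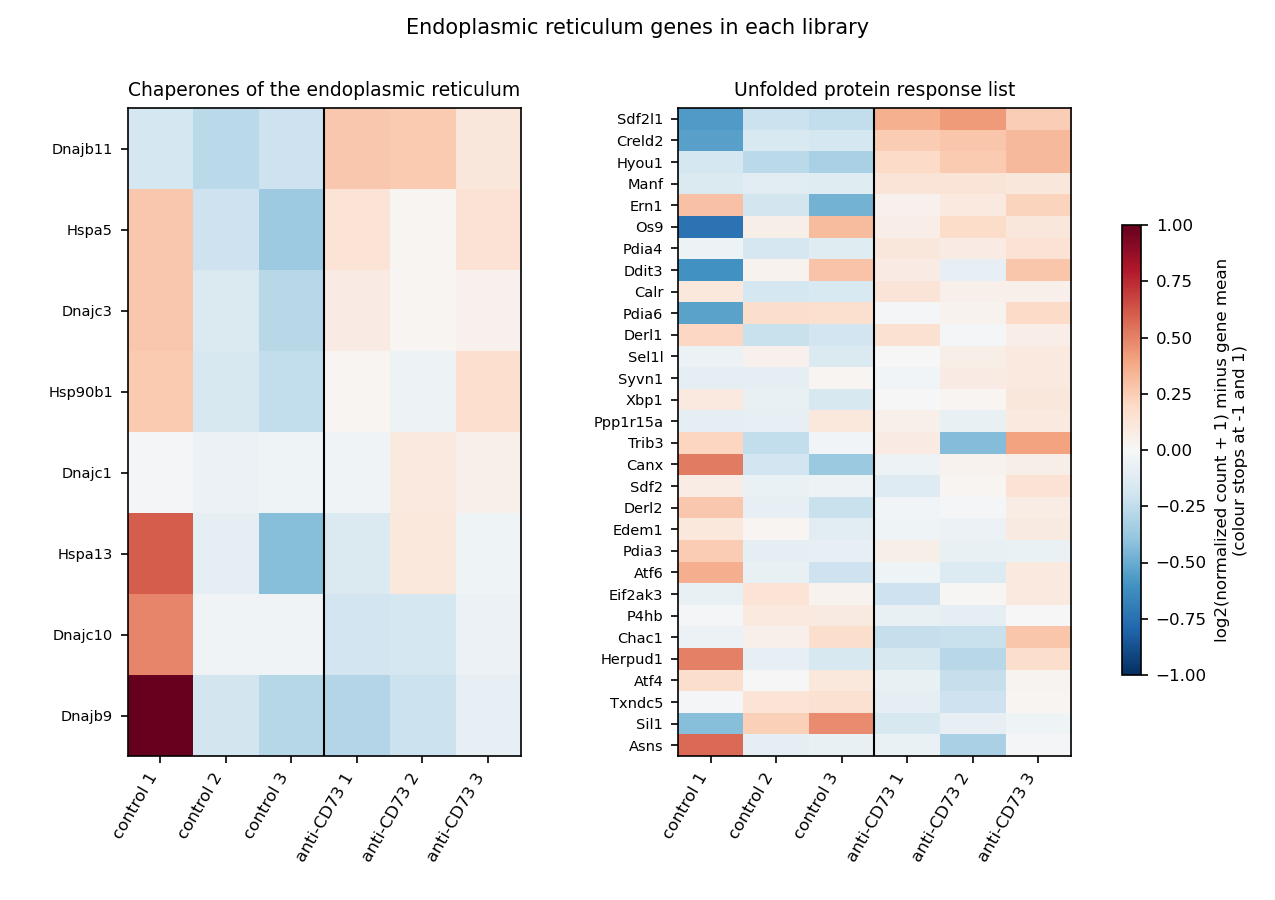
Genes of the endoplasmic reticulum in each library, coloured by log2(normalized count + 1) minus the gene's mean: the 8 chaperone members (left) and the 30 tested genes of the unfolded protein response list (right), each ordered by log2 fold change. Dnajb11, Sdf2l1, Creld2, Hyou1 and Manf were higher in all 3 anti-CD73 libraries, while Hspa5, Dnajc3 and Hsp90b1 were highest in control replicate 1 and higher after anti-CD73 than in control replicates 2 and 3.

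Serpinh1 (HSP47), the collagen chaperone of this compartment, lay higher without overlap, at 10998, 12565 and 11765 in the controls and 16177, 14937 and 15502 after anti-CD73 (0.40, SE 0.11, adjusted p = 0.183). The fibroblast markers given above took a larger share of the reads in each anti-CD73 library than in any control, and their part in Serpinh1 was not tested. In the list of 12 other chaperones and J proteins that held it and Cryab, 4 values lay above 0 and 8 below (median -0.014, and -0.0075 without control replicate 1).

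Genes of the HSF1 axis lay on both sides of 0. Hsf1 itself stood at 897, 915 and 961 normalized counts across controls and 1097, 1109 and 1111 after anti-CD73, with no overlap (0.26, SE 0.10, adjusted p = 0.284). Hsf2 lay lower, at 685, 549.9 and 475 against 444, 412 and 432 (-0.39, SE 0.16, adjusted p = 0.3; -0.25 without control replicate 1). Bag3, the partner of the Hspb8 protein and an HSF1 target, stood at 1555, 1543 and 1587 in the controls and 1217, 1269 and 1250.4 after anti-CD73, also without overlap (-0.33, SE 0.10, adjusted p = 0.193; called by DESeq2 with an adjusted p of 0.0342). Bag5 lay at -0.29 (SE 0.11, adjusted p = 0.284). Of the 20 genes of this list 7 lay above 0 and 13 below (median -0.12), with 2 higher and 3 lower at an unadjusted p under 0.05 (background 8.69% and 6.82%). Among the 12 known HSF1 targets within the chaperone members, 3 lay above 0 and 9 below (median -0.19), against 49.5% of all tested genes below 0. Their median without control replicate 1 was 0.028. Hspb1 and Hspa1a were 2 of the 3 above 0, and Hspe1 was the other. Of the 20 genes of the HSF1 list, control replicate 1 held the highest value of all libraries for 4 and the lowest for 6. Of the 30 co-chaperones it did so for 10 and 14 (background 30.7% and 32.1%).

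The 30 co-chaperones of HSP90 and HSP70 had 14 values above 0 and 16 below (median -0.039, and -0.095 without control replicate 1). At an unadjusted p under 0.05, 0 lay higher and 2 lower (background 8.69% and 6.82%). The 2 were Bag3 and Bag5, which the HSF1 list also holds. Ahsa1, the activator of the HSP90 ATPase, lay higher without overlap at 2193, 1870.1 and 2089 against 2479.8, 2412 and 2275 (0.22, SE 0.11, adjusted p = 0.372). Heat shock genes are known to rise when tissue is handled, as are immediate early genes. In that list of 18, 6 lay above 0 and 12 below (median -0.22), with Fos at 0.29 (SE 0.18), Egr1 at 0.40 (SE 0.27; 0.72 without control replicate 1), Nr4a1 at 0.71 (SE 0.19), Fosb at -0.89 (SE 0.18), Ier3 at -0.77 (SE 0.20) and Klf4 at -0.73 (SE 0.11). In control replicate 1, Egr1 was 1.94 times the mean of the other controls, and Fos 0.99 times. By unadjusted p under 0.05, 2 of the 18 lay higher and 5 lower (background 8.69% and 6.82%). Limma without control replicate 1 called 4 of the 18 higher and 9 lower (background 11.9% and 10.3%). The part of handling in the chaperone values was not tested. Of the 16 proliferation genes 7 lay above 0 and 9 below (median -0.014, and 0.044 without control replicate 1).

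The 15 members below the filter were mostly forms known from testis, muscle or nerve. The most read of them, Hspb9, Hspb2 and Hspb7, had 37, 35 and 27 reads over all 6 libraries. Hspa12a had 0 reads in the 3 controls and 3, 1 and 1 in the anti-CD73 libraries, too few for a fold.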

How the data were processed

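Bulk RNA-seq values of 6 mouse tumour libraries, 3 control and 3 anti-CD73, were used. The titles give group and replicate, and the descriptions give each library's column. The deposited values (signal) are counts per gene, which the authors normalized with DESeq, per the labels, so each library is on a common scale. Of tools and builds, Bowtie 0.12.7 and mm10 are listed, with no role stated, per the submitters' processing notes. The counter, annotation, strand setting and handling of multiply matching reads were not given in the sources used here, so near-identical and overlapping genes have uncertain levels.

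Dividing each library's values by its smallest step gave back whole reads for 100% of values, within 0.01 (10180624 to 17161679 a library). Groups were compared with limma-trend (limma 3.58.1, R 4.3.3) on log2(normalized count + 1), without a block and two-sided, over 12262 genes with a mean of at least 10, with Benjamini-Hochberg adjustment over all of them and a threshold of 0.05. On recovered reads, edgeR 4.0.16 (quasi-likelihood, TMM) and DESeq2 1.42.0 were alternatives, and DESeq2 gave an adjusted p for 12018 genes. Also tried were pseudocounts of 0.5 or 8, filters at 50 or none, 3 other scalings, robust empirical Bayes, replicate blocks and each library left out. The scripts were tested on simulated data.

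The members, the gene lists, the families and the motifs were chosen with earlier results of these data known. Named genes were a fixed panel of the main members, the 10 tested members with the smallest p in each direction, and up to 4 genes with the smallest p of each list, with Tcp1, Hsf1, Bag3, Xbp1, Atf4, Ddit3, Hyou1, Fos and Egr1. Others are named by class or said to be named after their values were seen. Coordinates are 1-based, from the RefSeq gene table of GRCm38.p6, the assembly of mm10, matched by Entrez gene number. Promoter sequences come from the RefSeq promoter table of the same build. Levels of different genes are not compared, since transcript lengths were not used here. Figures were drawn with matplotlib 3.10.9.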

Additional observations from a re-analysis of the deposited data

How the results depend on the processing

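Counts of called genes depended on the tool and on control replicate 1. Over all genes, 0 were called by limma, 592 by DESeq2 and 1780 with the replicate block by description number, and leaving out 1 library gave 0 to 2724 (2724 without control replicate 1). Of the chaperone members the counts were 0, 4 and 6, and 0 to 13 with a library left out (13 without control replicate 1). In alternatives added after seeing the data, edgeR and DESeq2 without control replicate 1 called 2703 and 2679 genes, and 13 and 15 members. Members at an unadjusted p under 0.05 were 11 in the main test (1902 of the 12262 tested genes) and 7 with TMM scaling (1892 genes). They were 6 with the rescaling without erythroid genes (1956 of 12255) and 6 with the replicate block by title number (1834). Each of those added count tests gave 18 (4437 genes with edgeR and 3966 with DESeq2). With a library left out they were 5 to 19 (854 to 4461 genes). These were 5 without anti-CD73 replicate 1 or 2 (1031 and 854 genes), 6 without control replicate 2 (1321) and 19 without control replicate 1 (4461). Members whose groups did not overlap were 16 (background 23.5%), with 14 to 17 under other filters and scalings. When a library was left out they were 18 to 32 (32 without control replicate 1). Of those 32, 12 lay higher and 20 lower (background 25.7% and 27.8%). The median of the members was -0.08, -0.0086 with the rescaling without erythroid genes, and -0.10 to -0.058 with a library left out.

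Whether the replicate numbers pair the samples is not known, since the labels do not say and 3 libraries a group are too few to decide. Deviations from the group means correlated at 0.19, -0.096 and 0.26 for title numbers 1, 2 and 3. Control replicates 1 and 3 correlated best with the anti-CD73 library of their own title number, and control replicate 2 did not. The block by title number called 0 members and 0 genes. The block by description number joins 2 pairs only (correlations -0.16 and 0.26) and leaves control replicate 1 and anti-CD73 replicate 2 without weight.

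Of the 45 entries of members named by rule, the following changed sign. With the replicate block by description number, Hsp90aa1 had 0.11, Hspa1b 0.068, Hspa1l -0.16, Hspa9 0.036, Hspa13 0.17, Hsph1 0.14, Hspd1 0.11, Cct4 0.00041, Dnajb6 0.012 and Dnajb9 0.049. With the rescaling without erythroid genes, Hsp90ab1 had 0.0027, Hspa13 0.016, the lower of the 2 Hspa14 entries 0.025 and Dnajb6 0.046. With quantile normalization, Hsp90ab1 had 0.11, Hspa1l -0.15 and Cct3 0.020. Hspa4 had -0.017 with DESeq2 and -0.0013 with edgeR. With a library left out, Hsp90aa1 ranged from -0.41 to 0.074, Hsp90b1 from -0.0075 to 0.25, Hspa1l from -0.24 to 0.53, Hspa4 from -0.10 to 0.19, Hspa13 from -0.28 to 0.24, that Hspa14 entry from -0.25 to 0.079, Hsph1 from -0.50 to 0.082, Hspd1 from -0.27 to 0.086, Dnajb6 from -0.040 to 0.011, Dnajb9 from -0.64 to 0.039 and Dnajc3 from -0.016 to 0.26. The cause was not tested.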
